A study of Mus musculus with 8 samples.

Results

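The secondary induced pluripotent stem cell (iPSC) lines S8 and T2 are the 2 lines of this series that were derived from epithelia, and their transcriptomes were compared with that of R1, a mouse embryonic stem cell (ESC) line. S8 was reprogrammed from epidermal cells, which are ectodermal, and T2 from cells of the stomach lining, which are endodermal. The comparison used 4 of the 8 libraries of the series, namely the 2 replicates of R1, the single library of S8 and the single library of T2. Of 22878 gene entries, 13424 reached 1 FPKM in at least 1 of the 4 libraries and were tested, 1456 were called, and the 1053 called genes that were shifted the same way in S8 and T2, 380 higher and 673 lower than in R1, are the subject here. The series also holds 2 libraries each of 16-6, from hematopoietic cells, and of 32, from adipocyte progenitors.

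Both epithelial lines came from adult tissue of all-iPSC mice, whose cells all carry doxycycline-inducible Oct4, Sox2, Klf4 and c-Myc, and the iPSC lines share that transgenic background while R1 does not. All lines, R1 included, were grown with LIF on mitomycin C-treated mouse embryonic fibroblasts (MEFs), and doxycycline had been withdrawn from the iPSCs. The sample labels give the tissue of every library as embryo and describe extraction from frozen embryos, although the cell line field and the study's methods describe cultured lines. Each line is a single established line and S8 and T2 have no replicate, so that tissue of origin, reprogramming, genetic background, line and library cannot be told apart in the difference from R1. No label names a sequencing batch. The design text calls the replicates biological without saying whether they were separate cultures. The p-values below measure the spread between the R1 libraries, which may be technical, pooled with the difference between the lines S8 and T2.

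Pluripotent cells of the mouse are held in a self-renewing state by a network of transcription factors around Oct4 (Pou5f1), Sox2 and Nanog. In the naive state, which LIF sustains through its receptor and STAT3, factors such as Zfp42, Esrrb, Tbx3 and the Klf proteins are also expressed. As the epiblast matures it passes through a formative into a primed state, in which Pou3f1, Sox3, Fgf5 and the de novo DNA methyltransferases rise while the naive factors recede. Feeder fibroblasts secrete collagens, proteoglycans and, when stressed or stimulated, chemokines and cytokines, and their RNA is collected along with that of the stem cells unless they are removed.

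Levels are given as rescaled FPKM. FPKM stands for fragments per kilobase of transcript per 1000000 fragments, so that levels of different genes can be set side by side. The deposited values were divided by 12725.7, a single constant for all libraries, so that 1 FPKM here is a relative unit. The scaled totals were not made equal, at 949513 and 1008702 in R1, 1076576 in S8 and 899033 in T2. The fragments implied by the confidence limits in the files summed to between 15.5 and 16.7 times 1000000 per library, R1, S8 and T2 included, while the study's own read table lists far more reads for S8 and T2 than for the other libraries. Genes with transcripts under 200 bases held 19.65% of the summed FPKM in S8 and 19.6% in T2, against 25.07% and 27.32% in R1 and 24.57% to 32.92% in 16-6 and 32. A difference is the mean of log2(FPKM + 1) in S8 and T2 minus that in R1, which understates the change of low genes, and is given with its standard error (SE) from a limma fit to 2 against 2 libraries. A gene was called where the Benjamini-Hochberg adjusted p was under 0.05 and the difference at least 1, that is 2-fold. A called gene was kept where S8 and T2 were each at least 1 from the mean of R1, on the same side and outside both R1 libraries. For a single gene an exact permutation test of 2 against 2 libraries cannot go below p = 0.33, so that every p below rests on the spread that limma shares among genes.

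Of the genes tested, 10.8% were called, 4.38% as higher and 6.47% as lower in S8 and T2. These correspond to 588 genes that rose and 868 that fell. Counts of called genes in the gene lists below are to be read against 4.38% higher and 6.47% lower. Leaving out an R1 library cut the calls sharply: 127 genes were called without R1 replicate 1 and 113 without R1 replicate 2, in fits where the remaining R1 library was assumed to vary like S8 and T2. Without S8, 1461 genes were called, and without T2 2307. The kept genes made up 72.3% of the called genes, which is a consequence of the rule. All 403 called genes that were not kept had the same sign in both lines, 299 of them reaching a difference of 1 in S8 alone and 104 in T2 alone. Equal signs are favoured by the fit, in which a difference between S8 and T2 enters the spread. The median difference was 1.39 among the kept higher genes, −1.51 among the kept lower genes and −0.04 among all genes tested. Among the genes nearest the 2-fold limit with an adjusted p under 0.05, Mettl17 (1.001) and 4833427G06Rik (−1.001) lay just inside and Ccdc101 (0.999) and Clec4a1 (−0.999) just outside. S8 was further from R1 than T2 in 280 of the 380 kept higher genes and 398 of the 673 kept lower genes. The share of higher genes among those kept, 36.1%, was 46.3% after quantile normalization, with 476 higher and 551 lower.

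**Figure D1:**
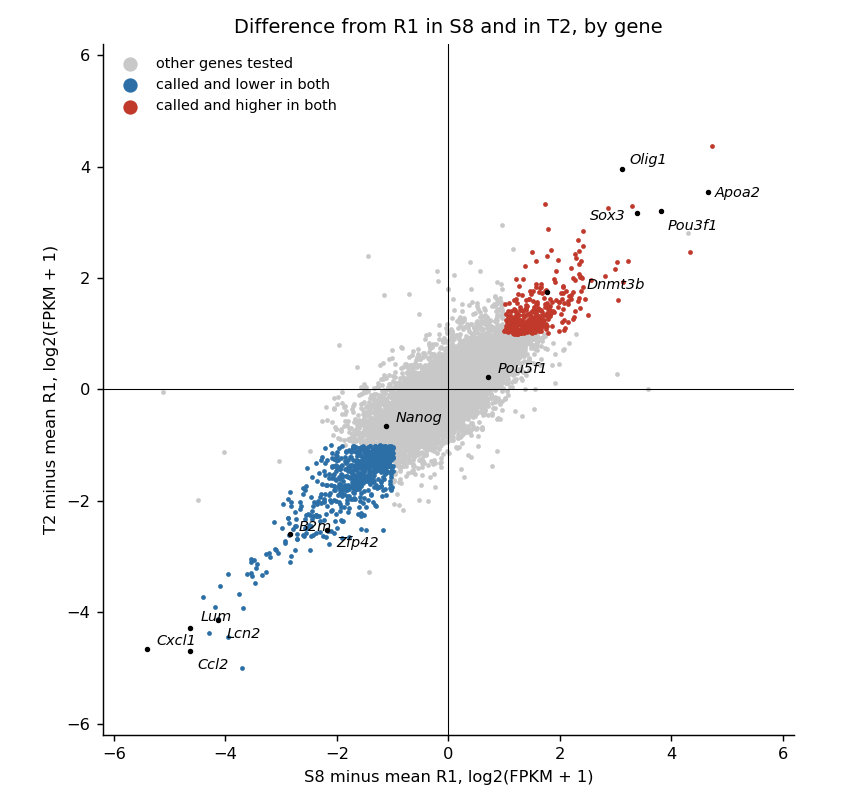
Difference from the mean of R1 in S8 (horizontal axis) and in T2 (vertical axis), both on the log2(FPKM + 1) scale, for each tested gene except those with transcripts under 200 bases. Red and blue points are called genes that lay at least 1 above or below R1 in both lines, grey points all other genes tested, and black points genes named in the text. Cxcl1, Ccl2 and Lum lie at the lower left, Apoa2, Olig1, Pou3f1 and Sox3 at the upper right, and Pou5f1 and Nanog near the centre.

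The 14 genes with the largest fall included chemokines, acute-phase proteins and matrix proteins. Cxcl1 (chr5:91320271-91322141 in mm9), a chemokine that attracts neutrophils, was at 145 and 174 FPKM in R1, 2.79 in S8 and 5.31 in T2. Its difference of −5.03 ± 0.28 (SE, adjusted p = 0.00408, limma) was the largest fall among genes with transcripts of at least 200 bases and a mean of 5 FPKM or more. About 21 fragments in S8 and 40 in T2 stood behind these values, against 917 and 1157 in R1. Ccl2, a monocyte chemoattractant, fell from 464 and 472 FPKM in R1 to 17.83 in S8 and 17.17 in T2, a difference of −4.66 ± 0.11 (adjusted p = 0.00035). The rule for kept genes already requires that R1 and the epithelial lines do not overlap in Cxcl1 and Ccl2. Their levels in the other iPSC lines were not alike: Cxcl1 was at 23.5 and 23.6 FPKM in 16-6 and 0.85 and 2.06 in 32, and Ccl2 at 351 and 403 in 16-6 and 6.08 and 6.33 in 32.

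Lum and Dcn, small proteoglycans that bind collagen, fell by 4.46 ± 0.18 and 4.13 ± 0.11 on the log2 scale. Lum was at 50.6 and 59.2 FPKM in R1, 1.24 in S8 and 1.87 in T2, and Dcn at 216 and 204 in R1, 11.08 in S8 and 11.02 in T2. The matrix-degrading stromelysin Mmp3 was at 202 and 230.0 FPKM in R1 and at 10.06 and 9.51 in S8 and T2 (−4.33 ± 0.12). The remaining genes of this set were made up of the acute-phase proteins Saa3 (−4.35 ± 0.45), Lcn2 and Serpina3n (−3.80 ± 0.16), the EGF receptor ligands Areg (−4.20 ± 0.21) and Ereg (−4.05 ± 0.15), the chemokines Cxcl5 (−3.71 ± 0.18) and Pf4, the macrophage lysozyme Lyz2 (−4.06 ± 0.26) and the prostaglandin synthase Ptgs2 (−3.64 ± 0.24). Lcn2 was at 17.18 and 16.15 FPKM in R1 and listed at 0 in S8 and T2, and Pf4 was at 10.90 and 9.34 in R1 and listed at 0 in both, so that no fold is given for these genes. Of these 14 genes, Ptgs2 alone was lower in S8 and T2 than in all 6 other libraries, at 4.84 and 8.12 FPKM, against 8.27 and 8.30 in 32. The other 13 were matched or undercut by at least 1 library of 16-6 or 32.

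**Figure D2:**
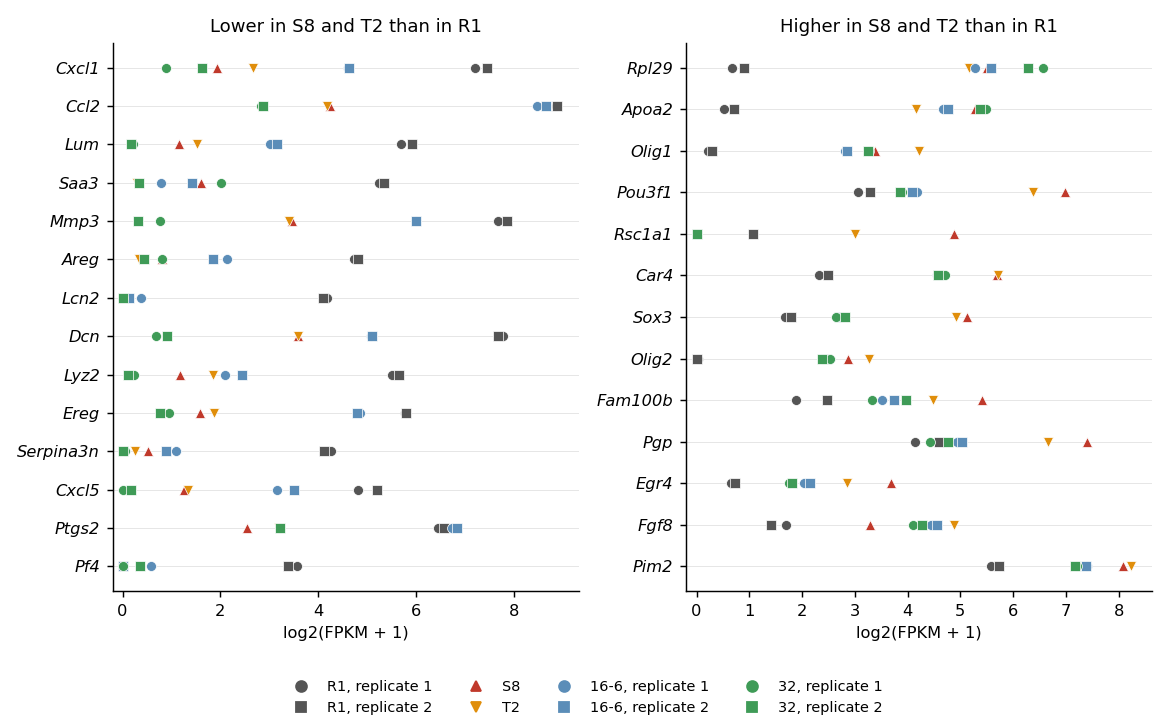
Level of the 14 genes that fell most (left) and 13 of the 14 that rose most (right) in S8 and T2, as log2(FPKM + 1) on the horizontal axis, with 1 symbol for each of the 8 libraries. Symbols of nearly equal level overlap. R1 lies to the right of S8 and T2 in the left panel and to the left in the right panel, and Pou3f1, Sox3, Car4 and Pim2 are higher in S8 and T2 than in all 6 other libraries.

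The chemokine genes, a group formed after their values were seen and therefore given without a test, were not uniform. Of 21 Ccl and Cxcl genes tested, 13 were kept as lower, 8 were not called and none was called higher. Of all 13424 genes tested, 673 were kept as lower. Among the lower ones, Ccl3, a macrophage chemokine, was at 10.55 and 10.65 FPKM in R1, listed at 0 in S8 and at 0.41 in T2. Ccl7 was at 39.7 and 46.6 FPKM in R1 and at 12.33 and 12.69 in S8 and T2, a difference of −1.70 ± 0.13. Ccl11, which attracts eosinophils, was at 22.20 and 19.65 FPKM in R1 against 0.91 in S8 and 1.14 in T2 (−3.44 ± 0.15). Of those not called, Ccl25 was at 1.62 and 1.63 FPKM in R1 and at 4.77 and 2.76 in S8 and T2, above all 6 other libraries (0.83 ± 0.24, adjusted p = 0.0688). Cxcl12, a chemokine of stromal cells, gave 15.33 and 13.34 FPKM in R1, 13.17 in S8 and 14.21 in T2, with an adjusted p of 0.758, T2 lying within the R1 range and S8 just below it.

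Transcription of many chemokine genes is known to be driven by NF-kB, whose binding sites include the letters GGNNTTTCC. The 250 bases before the start site, taken from the RefSeq table (GRCm38.p6, a later build than the mm9 of the expression files), are shown for the neighbouring chemokine genes Cxcl1 (chr5:90890995-90891244, plus strand), Cxcl2 (chr5:90903649-90903898, plus strand) and Cxcl3 (chr5:90785851-90786100, plus strand), because all 3 fell together. Capitals mark each match to GGNNTTTCC on either strand.
Cxcl1: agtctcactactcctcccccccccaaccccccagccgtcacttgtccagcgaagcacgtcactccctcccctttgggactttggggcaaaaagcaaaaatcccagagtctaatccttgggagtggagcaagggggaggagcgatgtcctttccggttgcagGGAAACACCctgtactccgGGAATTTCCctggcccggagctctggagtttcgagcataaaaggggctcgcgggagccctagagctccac
Cxcl2: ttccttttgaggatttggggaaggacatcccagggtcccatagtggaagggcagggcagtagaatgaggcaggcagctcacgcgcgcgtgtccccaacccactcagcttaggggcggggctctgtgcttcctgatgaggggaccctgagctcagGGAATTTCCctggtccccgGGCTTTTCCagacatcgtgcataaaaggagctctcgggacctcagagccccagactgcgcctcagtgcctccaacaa
Cxcl3: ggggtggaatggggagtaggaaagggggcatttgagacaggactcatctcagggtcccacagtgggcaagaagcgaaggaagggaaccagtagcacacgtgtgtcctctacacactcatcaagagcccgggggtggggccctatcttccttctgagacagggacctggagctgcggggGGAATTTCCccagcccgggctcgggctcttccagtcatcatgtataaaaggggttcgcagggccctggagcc
The matches began 89 and 70 bases before the start site in Cxcl1, 96 and 77 in Cxcl2 and 72 in Cxcl3. Of the 13 kept lower Ccl and Cxcl genes, 7 had a promoter in the table and 4 of these 7 held a match, against 6 of the 13 matched promoters of all tested Ccl and Cxcl genes. The share was 5.62% of all 27025 promoters of that length, 6.16% of the 10427 matched promoters of tested genes, 10.5% of the 474 matched kept lower genes and 4.76% of the 273 matched kept higher genes. The motif was chosen after the genes were seen, and a match is a description of the letters, not of binding. Cxcl2 was at 6.30 and 6.22 FPKM in R1, listed at 0 in S8 and at 0.39 in T2, and Cxcl3 at 5.63 and 8.93 in R1 and at 0.20 and 0.09 in S8 and T2.

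Markers of feeder fibroblasts moved in part with the genes above. Of 29 fibroblast genes tested, 10 fell and 3 rose (all genes tested, 6.47% and 4.38%), with a median difference of −0.79. Besides Lum and Dcn, Prrx1, a mesenchymal homeobox factor, was at 56.2 and 54.7 FPKM in R1, 6.75 in S8 and 10.48 in T2 (−2.58 ± 0.22). Col6a1, which encodes a chain of type VI collagen, was at 107 and 109 FPKM in R1 and at 25.4 and 29.99 in S8 and T2 (−1.93 ± 0.13). The type I collagen gene Col1a1, in contrast, was at 174 and 180 FPKM in R1, 167 in S8 and 243 in T2, with an adjusted p of 0.53. The summed level of the 29 genes was 2947 and 3113 FPKM in R1, 1738 in S8, 2227 in T2, 7757 and 7775 in 16-6 and 1028 and 1038 in 32, and no member was at 0 in S8 and T2. Fewer fibroblasts and less RNA of these genes per fibroblast cannot be told apart in bulk samples. In 16-6 the summed level was above that of R1, while Cxcl1, Lum, Dcn, Mmp3 and Saa3 were below R1 there and Ptgs2 (105 and 112 FPKM), Prrx1 (81.4 and 82.8) and Ccl7 (77.5 and 76.6) above it. The part of feeder cells in the differences was not tested.

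The 3 fibroblast-list genes that rose belong to the contractile apparatus of smooth muscle and activated fibroblasts. Acta2, smooth muscle actin, was at 68.7 and 65.5 FPKM in R1, 156 in S8 and 210 in T2 (1.42 ± 0.18, adjusted p = 0.0138). Cnn1, calponin, was at 2.65 and 2.72 FPKM in R1 and at 13.11 and 15.00 in S8 and T2 (2.03 ± 0.14). Tagln, transgelin, rose by 1.13 ± 0.21 but reached a difference of 1 in T2 and not in S8. These 3 genes were higher still in 16-6, where Acta2 was at 966 and 968 FPKM and Cnn1 at 41.5 in both libraries. Of 19 contractile genes tested, a group also formed after seeing the values, 6 were kept as higher: Acta1, Acta2, Actc1, Myl9, Cnn1 and Cnn2. Of all 13424 genes tested, 380 were kept as higher. Tagln and Actg2 were called higher without being kept, and the other members were not called. Among the uncalled members, Tpm1 differed by 0.60, Tpm2 by 0.02, Des by −0.06 and Tagln2 by −0.45. Tagln2 was lower in S8 and T2 than in all 6 other libraries. Cardiac actin Actc1 was at 1.27 and 1.21 FPKM in R1 and 7.34 and 7.87 in S8 and T2, above all 6 other libraries. Myl9, a regulatory light chain of myosin, was at 11.55 and 12.74 FPKM in R1 and at 66.1 and 61.4 in S8 and T2 (2.30 ± 0.12).

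Serum response factor binds the CArG box, 2 C, 6 bases of A or T, and 2 G, which is known from promoters of actin and calponin genes. It was found within 250 bases before the start site in 4 of the 6 kept contractile genes. Of the 16 matched promoters of all tested contractile genes 5 held it, and of all 27025 promoters 1.62%. The examples of Actc1 (chr2:114052876-114053125, minus strand, GRCm38.p6) and Cnn2 (chr10:79988350-79988599, plus strand), shown as an actin and a calponin gene whose window held the box, carry it in capitals. The windows of Acta2 and Cnn1 held none.
Actc1: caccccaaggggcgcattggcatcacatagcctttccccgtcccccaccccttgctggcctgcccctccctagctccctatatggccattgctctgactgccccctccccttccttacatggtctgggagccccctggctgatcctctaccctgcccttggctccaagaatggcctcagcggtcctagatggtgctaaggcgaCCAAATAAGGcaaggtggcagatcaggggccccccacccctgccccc
Cnn2: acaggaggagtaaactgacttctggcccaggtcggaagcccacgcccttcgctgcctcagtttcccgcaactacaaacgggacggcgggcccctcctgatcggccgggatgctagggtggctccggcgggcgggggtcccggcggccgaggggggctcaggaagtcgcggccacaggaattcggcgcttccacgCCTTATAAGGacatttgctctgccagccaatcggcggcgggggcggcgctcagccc
It began 47 bases before the start site in Actc1 and 56 in Cnn2. Among matched promoters it occurred in 2.56% of kept higher and 1.9% of kept lower genes, and in 1.44% of all tested genes. As with the first motif, the search was made after the genes had been seen.

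Among the 14 genes that rose most were several transcription factors. Pou3f1 (chr4:124334889-124337899 in mm9), a POU factor of the primed epiblast and of neural progenitors, was at 7.38 and 8.72 FPKM in R1, 125 in S8 and 82.3 in T2. Its difference was 3.51 ± 0.24 (adjusted p = 0.00619), and 372 and 428 fragments in R1 against 3680 and 2871 in S8 and T2 stood behind it. Both lines were also far above 16-6 (17.1 and 15.99 FPKM) and 32 (13.79 and 13.54). Sox3, an X-linked relative of Sox2, was at 2.21 and 2.47 FPKM in R1, 34.1 in S8 and 29.1 in T2, with 5.26 to 6.05 in the other iPSC libraries (3.28 ± 0.15, adjusted p = 0.00311). For Sox3, R1 was lowest, 16-6 and 32 were intermediate and the epithelial lines highest, without overlap.

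Olig1 and Olig2, bHLH factors of the oligodendrocyte lineage that lie next to each other on chromosome 16, were nearly silent in R1. Olig2 was at 0.02 FPKM in R1 replicate 1, listed at 0 in replicate 2, and at 6.33 in S8 and 8.66 in T2. Olig1 gave 0.16 and 0.23 FPKM in R1 and 9.37 and 17.51 in S8 and T2 (3.53 ± 0.31). Both genes were also expressed in 16-6 and 32, at 4.23 to 8.68 FPKM. Fgf8, a growth factor of the primitive streak, was at 2.24 and 1.65 FPKM in R1, 8.74 in S8 and 28.3 in T2, and its difference of 2.53 ± 0.55 (adjusted p = 0.0366) lost its call with length and GC trends removed (1.95, adjusted p = 0.0954).

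The carbonic anhydrase gene Car4 was at 4.0 and 4.63 FPKM in R1 and at 50.8 and 51.2 in S8 and T2 (3.29 ± 0.13). Pim2, a survival kinase, rose from 47.1 and 52.1 FPKM to 270.1 and 299 (2.50 ± 0.13). Both genes were above R1 in 16-6 and 32 as well, Car4 at 22.5 to 25.1 FPKM and Pim2 at 144.3 to 168.5. Egr4 (2.58 ± 0.31), an immediate early zinc finger factor, the phosphoglycolate phosphatase gene Pgp (2.66 ± 0.30) and Fam100b (2.77 ± 0.38) also belonged to the leading genes. The apolipoprotein gene Apoa2 was at 0.44 and 0.64 FPKM in R1, 37.9 in S8 and 16.98 in T2, and at 24.5 to 43.9 in 16-6 and 32. Rpl29 had the largest difference of these 14 genes, 4.55 ± 0.19, from 0.59 and 0.86 FPKM in R1 to 44.7 and 34.6 in S8 and T2, but 6 and 9 fragments stood behind the R1 values and near-identical copies of this ribosomal protein gene make its level uncertain. Rsc1a1 overlaps another gene and was listed at 0 and at 1.10 FPKM in R1 and at 28.3 and 7.03 in S8 and T2, with under 1 fragment implied in T2, so that its rise is uncertain.

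Among 27 genes of the pluripotency network, 9 fell and 1 rose in the epithelial lines (all genes tested, 6.47% and 4.38%). Their median difference was −0.35. Most of those that fell are markers of the naive state. Zfp42 (chr8:44380421-44392363 in mm9), which encodes Rex1, was at 541 and 544 FPKM in R1, 119 in S8 and 92.9 in T2 (−2.36 ± 0.16, adjusted p = 0.00619). The grainyhead-like factor Tcfcp2l1, a target of LIF and STAT3 signalling, was at 56.2 and 54.6 FPKM in R1, 8.21 in S8 and 14.31 in T2 (−2.25 ± 0.27). Tbx3, a T-box repressor, was at 42.5 and 39.6 FPKM in R1 against 9.50 and 6.51 in S8 and T2 (−2.24 ± 0.20). In the 9 genes that fell, Klf4 excepted, S8 and T2 lay below all 6 other libraries, against 26.3% of all kept lower genes. All 9 were below R1 in 16-6 as well. Zfp42 was at 141 and 144 FPKM in 16-6. Tcl1 was at 14.77 and 15.83 there, against 43.4 and 41.9 in R1, 14.25 in S8 and 8.16 in T2. In 32, Tcfcp2l1, Tbx3, Nr5a2 and Tcl1 were above R1. The nuclear receptors Nr0b1 (−1.92 ± 0.26), Nr5a2 (−1.83 ± 0.17) and Esrrb (−1.64 ± 0.12), the cofactor Tcl1 (−1.89 ± 0.27), Klf5 (−1.08 ± 0.14) and Klf4 (−1.03 ± 0.18) made up the rest. Klf4 lost its call under median-of-ratios scaling, with a difference of −0.96.

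The core factors were not called. Pou5f1 was at 605 and 636 FPKM in R1, 1020.2 in S8 and 729.9 in T2, and its difference of 0.48 ± 0.21 had an adjusted p of 0.158, although both lines lay above all 6 other libraries. Sox2 was at 263 in both R1 libraries, 284 in S8 and 207 in T2 (−0.12 ± 0.19, adjusted p = 0.663). Nanog was at 177 and 174 FPKM in R1, 80.8 in S8 and 112 in T2, a difference of −0.88 ± 0.19 with an adjusted p of 0.0352 that stayed under the 2-fold limit, and −1.07 with a call after quantile normalization. Myc differed by 0.11 ± 0.11 (adjusted p = 0.477). The RNA-binding protein gene Lin28a, which keeps let-7 from maturing, rose from 168 and 185 FPKM in R1 to 387 and 367 (1.09 ± 0.13, adjusted p = 0.013), and lost its call after quantile normalization (0.86).

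Of 18 genes of the formative and primed epiblast, 6 rose and none was called lower (all genes tested, 4.38% and 6.47%). Their median difference was 0.83, against −0.04 over all genes tested. Besides Pou3f1 and Sox3, Dnmt3b, a de novo DNA methyltransferase, was at 137 and 156 FPKM in R1 and at 502 and 490.4 in S8 and T2 (1.75 ± 0.13, adjusted p = 0.00697). Sox11, a SoxC factor, was at 8.37 and 8.12 FPKM in R1, 24.4 in S8 and 30.4 in T2 (1.61 ± 0.15). Dnmt3a (1.27 ± 0.18) and the zinc finger gene Zic2 (1.22 ± 0.12) rose as well. All 6 were higher in S8 and T2 than in all 6 other libraries, as were 87.1% of all kept higher genes. Fgf5, the classical marker of the primed epiblast, was at 6.56 and 6.94 FPKM in R1, 13.25 in S8 and 28.3 in T2 with an adjusted p of 0.0524, and Otx2, a homeobox factor of the same stage, was at 62.1 and 65.3 in R1 and 50.1 and 44.99 in S8 and T2 (adjusted p = 0.0632). With length and GC trends removed, the medians of the pluripotency and the formative list were −0.43 and 0.72.

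**Figure D3:**
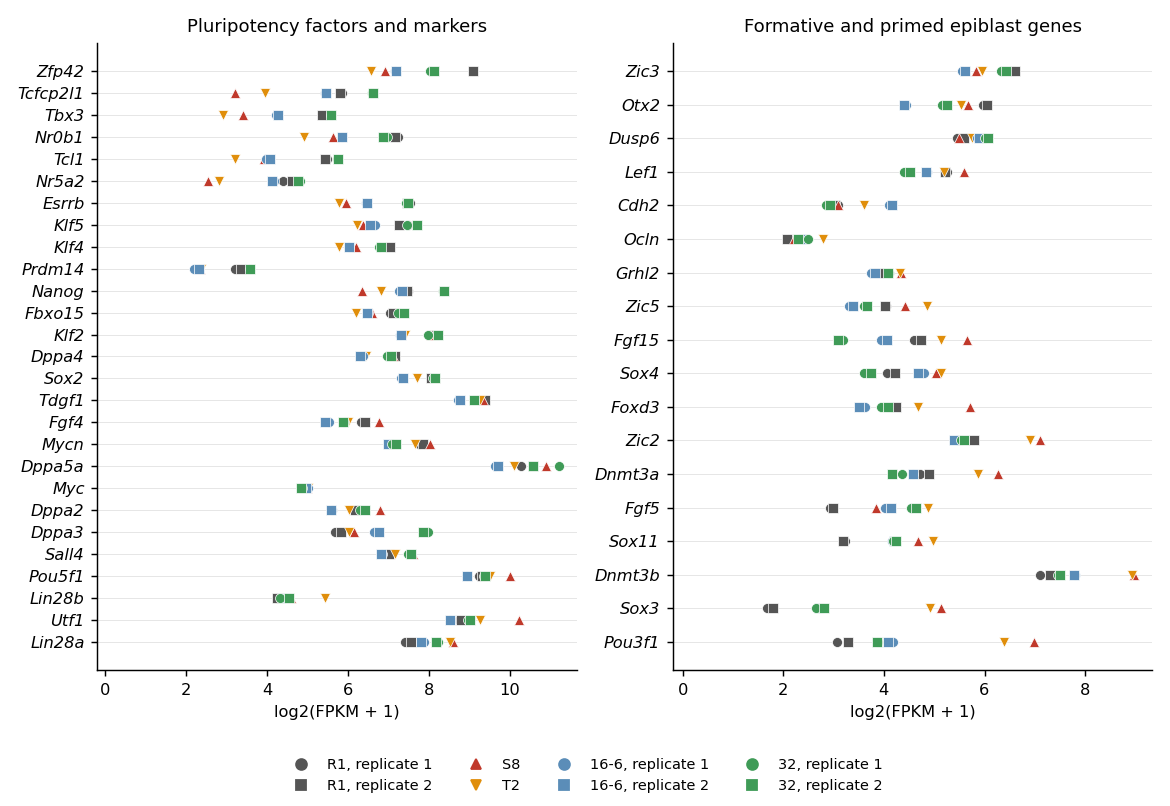
Level of 27 pluripotency genes (left) and 18 formative and primed epiblast genes (right) in each of the 8 libraries, as log2(FPKM + 1) on the horizontal axis, ordered by the difference of S8 and T2 from R1. Symbols of nearly equal level overlap. S8 and T2 lie to the left of the other libraries for Zfp42, Tcfcp2l1 and Tbx3 and to the right for Dnmt3b, Sox3 and Pou3f1, while for Sox2 and Myc they lie close to R1.

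DNA methylation genes moved in both directions, 4 higher and 2 lower of 17 (all genes tested, 4.38% and 6.47%), with a median difference of 0.01. Tet1 and Tet2, which oxidise methylcytosine, fell by 1.56 ± 0.31 and 1.74 ± 0.25 on the log2 scale, Tet1 from 147 FPKM in both R1 libraries to 36.1 in S8 and 66.7 in T2. The glycosylase gene Tdg rose by 1.43 ± 0.15 and Mbd3, a subunit of the NuRD complex, by 1.23 ± 0.27. Tet1 has a transcript of 14369 bases, and its difference was −0.77, under the 2-fold limit, once length and GC trends were removed. Dnmt1, the maintenance methyltransferase, was at 93.8 and 92.9 FPKM in R1 and 85.3 and 94.9 in S8 and T2.

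In the LIF and STAT3 pathway 5 of 15 genes fell and 1 rose (all genes tested, 6.47% and 4.38%), with a median difference of −0.12. The ligand gene Lif was at 17.96 and 19.37 FPKM in R1, 1.50 in S8 and 2.50 in T2 (−2.73 ± 0.21), the receptor gene Lifr at 21.9 and 22.8 in R1 and 8.20 and 7.82 in S8 and T2 (−1.38 ± 0.12), and the signalling subunit gene Il6st fell by 1.23 ± 0.22. The kinases Jak2 (−1.42 ± 0.32) and Jak1 (−1.23 ± 0.19) fell too, while Stat3 differed by −0.60 ± 0.11 and stayed under the 2-fold limit. The feedback inhibitor Socs1 rose by 1.18 ± 0.14, and lost its call with length and GC trends removed (0.56, adjusted p = 0.0917). Lifr, with a transcript of 9655 bases, lost it as well (−0.78, adjusted p = 0.0775).

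Nodal, BMP and Id genes gave 4 higher and 1 lower of 21 (all genes tested, 4.38% and 6.47%). Their median of −0.17 became 0.06 once length and GC trends were removed. Lefty1, a secreted Nodal inhibitor and Nodal target, was at 54.9 and 62.8 FPKM in R1 and at 309 and 296 in S8 and T2 (2.35 ± 0.13, adjusted p = 0.00395). Lefty2 (1.01 ± 0.14) and the inhibitory Smad7 (1.03 ± 0.11) rose, and Id4, an inhibitor of bHLH factors, fell by 1.86 ± 0.13. Nodal itself was at 24.5 and 29.8 FPKM in R1 and at 45.7 and 47.4 in S8 and T2, a difference of 0.76 ± 0.14 under the 2-fold limit. Of 16 genes of FGF and ERK feedback (median −0.07), 1 rose (Spry1, 1.50 ± 0.15) and 2 fell (Spry4, −1.27 ± 0.18, and Fosl1, −1.10 ± 0.18). None of 11 Wnt target genes (median 0.09) was called, and the Wnt-induced zinc finger gene Sp5, named after its values were seen, had a difference of −1.23 ± 0.37 with an adjusted p of 0.0728.

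No marker of the tissues of origin was called higher in S8 and T2. Krt5, a keratin of basal keratinocytes, was at 0.35 and 0.17 FPKM in R1, 0.13 in S8 and 0.16 in T2 and did not enter the test. Trp63, the master factor of stratified epithelia, stayed at or under 0.08 FPKM in these 4 libraries, and Krt14 at or under 0.71. Of 9 epidermal genes tested (median −0.32), none was called higher and Tnc fell, from 225 and 239 FPKM in R1 to 72.8 in S8 and 112 in T2 (−1.35 ± 0.23, adjusted p = 0.0238). Tnc, which encodes the matrix protein tenascin C, is also made by fibroblasts and was at 687 and 682 FPKM in 16-6. The epidermal genes Sfn, at 31.6 and 31.4 FPKM in R1, 49.8 in S8 and 79.1 in T2 (0.97 ± 0.24, adjusted p = 0.0474), and Lor, at 0.84 and 1.43 in R1, 2.73 in S8 and 3.34 in T2 (0.93 ± 0.21, adjusted p = 0.038), were higher in both lines but under the 2-fold limit. With Krt17, these were the 3 of 9 tested epidermal genes with a difference above 0. Krt17 was at 10.38 and 8.79 FPKM in R1, 16.62 in S8, above every other library, and 8.52 in T2, and was not called. The summed level of the epidermal list was 348 and 364 FPKM in R1, 190 in S8 and 275 in T2, and Ivl was listed at 0 in both S8 and T2.

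Among stomach markers, Tff1, Tff2, Gkn1 and Gkn2, secreted proteins of the stomach lining, were listed at 0 in R1, S8 and T2. Ghrl, the gene of the stomach hormone ghrelin, fell from 2.50 and 2.64 FPKM in R1 to 0.68 in S8 and 0.61 in T2 (−1.12 ± 0.14, adjusted p = 0.0139), on 3 fragments in each of the latter. Pgc, a pepsinogen gene, was at 3.68 and 3.10 FPKM in R1 and at 1.42 and 1.46 in S8 and T2, without a call (−0.84 ± 0.15). Of 5 stomach genes tested (median −0.84) none was called higher, and the sum over the list was 13.33 and 12.36 FPKM in R1, 6.58 in S8 and 6.06 in T2.

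Of 30 genes of epithelial junctions and splicing 8 rose, 22 were not called and none was called lower. Of all genes tested 4.38% were called higher and 6.47% lower. The median difference of the list was 0.72, and 0.69 after removal of length and GC trends. The simple-epithelium keratin gene Krt18 was at 7.34 and 8.69 FPKM in R1, 30.1 in S8 and 65.3 in T2 (2.34 ± 0.38, adjusted p = 0.0222). The claudins Cldn6 (1.78 ± 0.14) and Cldn7 (2.09 ± 0.24), which form tight junctions, rose, Cldn6 from 47.6 and 51.8 FPKM to 159 and 188. Spint2, a serine protease inhibitor of epithelia, was at 53.9 and 62.9 FPKM in R1 and at 233 and 174 in S8 and T2 (1.77 ± 0.19). The adhesion gene Epcam rose by 1.13 ± 0.14, and Cdh1, E-cadherin, differed by 0.94 ± 0.14, under the 2-fold limit. Of the 30 genes, 26 had a difference above 0. Members below R1 included the grainyhead factor Grhl3, at 7.21 and 7.88 FPKM in R1 and 4.49 and 4.07 in S8 and T2 (−0.70 ± 0.14, not called). The desmosomal Dsp was below R1 in S8 alone, at 1.79 in S8 and 7.35 in T2 against 4.67 and 4.59 in R1. In the lines of other origins Krt18 was at 41.2 to 58.5 FPKM and Cldn7 at 35.6 to 47.6, overlapping S8 and T2, while Cldn6 and Spint2 were above all 6 other libraries.

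Genes of antigen presentation and the interferon response fell more often than they rose, 7 against 2 of 23 (all genes tested, 6.47% and 4.38%). Their median was −0.57. B2m, the light chain of MHC class I, was at 477 and 405 FPKM in R1, 60.2 in S8 and 71.8 in T2 (−2.72 ± 0.16, adjusted p = 0.00463). In 32 B2m was at 63.5 and 64.9, between S8 and T2, and in 16-6 at 381 and 408. The interferon factor Irf7 (−1.76 ± 0.20) and the ubiquitin-like Isg15 (−1.60 ± 0.21) fell, while the proteasome subunit Psmb10 (1.95 ± 0.21) and Irf1 (1.49 ± 0.16) rose. Blood cell genes gave 4 lower of 5 tested with a median of −2.01, namely Lyz2, Cd34 (−2.52 ± 0.14), the macrophage marker Emr1 (−2.01 ± 0.14) and Itgam (−1.12 ± 0.14). The summed level of the blood list was 78.9 and 84.4 FPKM in R1, 7.0 in S8 and 7.52 in T2, with the hemoglobin genes at 0 in these 4 libraries. The sum was also below R1 in the other iPSC lines, at 12.57 and 13.44 in 16-6 and 3.27 and 2.85 in 32. Of 5 adipocyte and progenitor genes (median −1.86) 3 fell, among them the fatty acid binding protein gene Fabp4, from 9.70 and 10.09 FPKM to a listed 0 in S8 and 0.17 in T2. Fabp4 was at 0.82 and 0.67 in 16-6 and listed at 0 in 32.

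Glycolysis and hypoxia genes gave 8 lower and 1 higher of 29, with a median of −0.32. Of all genes tested 6.47% were called lower and 4.38% higher, which applies to each list that follows here. Vegfa, the angiogenic factor induced by hypoxia, was at 51.8 and 50.5 FPKM in R1 and at 10.17 and 13.18 in S8 and T2 (−2.05 ± 0.16), and Ndrg1 (−1.86 ± 0.12), P4ha1 (−1.68 ± 0.13) and Pfkp (−1.65 ± 0.20) fell as well, whereas the lactate transporter gene Slc16a3 rose by 1.53 ± 0.14. Core enzymes such as Ldha (0.11 ± 0.17) and Pgk1 (−0.64 ± 0.15) were not called. Of 23 cholesterol synthesis genes 4 rose and none was called lower, with a median of 0.42, and those that rose included the synthase gene Fdps (1.42 ± 0.21) and the epoxidase gene Sqle (1.33 ± 0.11). Among 20 p53 targets (median −0.56) 4 fell and 1 rose, Cdkn1a, the cell cycle inhibitor p21, from 119 and 125 FPKM to 47.8 and 53.3 (−1.26 ± 0.12) and the apoptosis gene Pmaip1 upward by 1.39 ± 0.30. The amino acid response list gave 4 higher and 1 lower of 30 with a median of 0.22, led by Slc7a11 (−1.73 ± 0.19), Chac1 (1.66 ± 0.17) and Phgdh (1.28 ± 0.12). Immediate early genes gave 2 higher and 2 lower of 17 with a median of 0.30, Jund (1.75 ± 0.24) and Fos (1.19 ± 0.19, reaching 2-fold in T2 and not in S8) against Ier3 (−2.47 ± 0.11) and Egr3 (−1.37 ± 0.18).

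**Figure D4:**
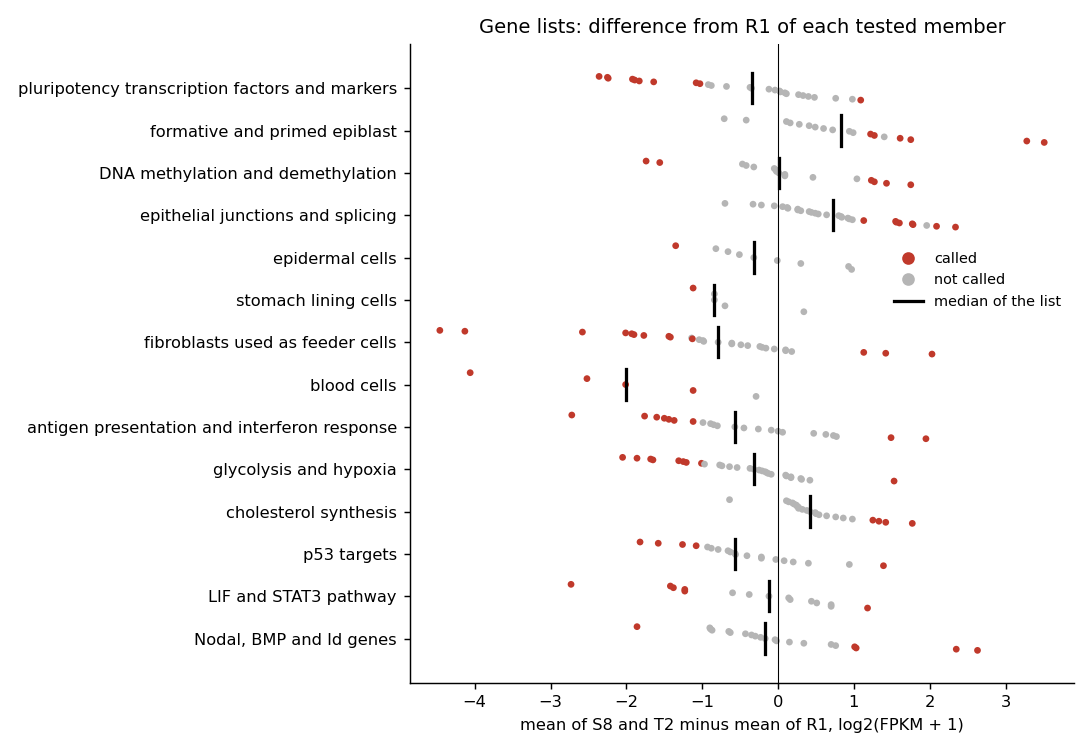
Difference of S8 and T2 from R1 on the log2(FPKM + 1) scale (horizontal axis) for each tested member of 14 gene lists. Red points are called genes, grey points genes that were not called, and the black bar is the median of the list. Formative and primed epiblast genes and epithelial junction genes lie mostly to the right of 0, fibroblast and blood cell genes mostly to the left.

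Counts for the remaining developmental, chromatin and housekeeping lists follow, against the 10.8% of all tested genes that were called. Primitive endoderm genes gave 4 lower of 11 with a median of −0.45 (Pdgfra, −1.86 ± 0.14, the receptor for PDGF, and the laminin gene Lama1, −1.59 ± 0.14, among them), and primitive streak genes 1 higher of 5 with a median of 0.58 that was −0.02 without T2 (Fgf8). Neuroectoderm genes gave 1 higher of 6 with a median of 0.40 (Sox1, 1.21 ± 0.21), and trophoblast genes 2 higher and 1 lower of 7 with a median of 0.46 (Rhox6, 1.35 ± 0.22, Krt7, 1.05 ± 0.15, and Tead4, −1.51 ± 0.14). Of 8 genes of the 2-cell-like state (median −0.72) 2 fell (Zscan4e, −1.54 ± 0.17, and Zscan4a, −1.29 ± 0.16), which are near-identical copies of each other and therefore uncertain. Germline genes gave 1 lower of 18 with a median of 0.05, the meiotic gene Sycp3 (−1.43 ± 0.22). Of 39 imprinted genes 6 fell and 1 rose, with a median of −0.21 that was 0.04 without S8. H19 and Igf2, neighbours that share an imprinting control region, fell by 1.83 ± 0.14 and 1.78 ± 0.21, Dlk1 by 2.32 ± 0.14, and Cdkn1c, a cell cycle inhibitor, rose from 16.19 and 15.22 FPKM to 79.9 and 43.3 (1.84 ± 0.31). The imprinted non-coding RNA Meg3 was at 152 and 159 FPKM in R1, 94.8 in S8 and 143 in T2 and was not called. Replication-dependent histone genes, many of whose copies are near-identical, gave 3 higher of 40 with a median of 0.49. Cytosolic ribosomal protein genes gave 6 higher and 2 lower of 85 with a median of 0.15 that was −0.07 without S8, and nuclear respiratory chain genes 1 higher and 6 lower of 84 with a median of 0.06 that was −0.08 after quantile normalization. None of 14 heat shock and metallothionein genes (median 0.19) was called. Among 6 Y-linked genes and Xist tested (median −0.98), 3 fell: Xist, from 27.3 and 21.6 FPKM to 5.44 and 5.25, and the Y-linked Eif2s3y (−1.22 ± 0.21) and Ddx3y (−1.18 ± 0.26).

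Comparison with the other 6 libraries separated the rises from the falls. S8 and T2 both lay above all of R1, 16-6 and 32 in 331 of the 380 kept higher genes (87.1%), against 18.9% of all genes tested. They lay below all 6 in 177 of the 673 kept lower genes (26.3%), against 11.7% of all genes tested. The kept genes were chosen to lie outside the R1 range, which raises both shares over the background. Of the 496 kept lower genes that were not below all 6, 350 were matched or undercut in 32 and not in 16-6, 56 in 16-6 and not in 32, and 90 in both. Ndufa4l2, a hypoxia-induced relative of a complex I subunit, was such a case, at 49.9 and 49.8 FPKM in R1, 16.09 and 7.95 in S8 and T2 and 1.35 to 2.90 in 16-6 and 32. The libraries of S8 and T2 also share the lower share of short-gene FPKM given above and the gradients described next, and the part of library preparation in genes that set them apart from the other 6 was not tested.

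Differences of S8 from R1 varied with transcript length. In S8 the median difference was 0.22 for transcripts of 200 to under 1000 bases, 0.25 for transcripts of 1000 to under 2000 bases, 0.05 at 2000 to under 4000, −0.31 at 4000 to under 8000 and −0.78 for 542 genes of 8000 bases and over. In T2 the medians of the same classes were −0.20, 0.01, 0.00, −0.06 and −0.21, so that T2 was opposite to S8 in the first of them. The difference between the R1 replicates fell from 0.06 to 0.01 over these classes. Kept higher genes made up 4.29% of the genes of 1000 to under 2000 bases and 0.738% of those of 8000 bases and over, while kept lower genes made up 5.14% and 5.9%. The median length was 1993 bases in kept higher genes, 2724 in kept lower genes and 2877 in all genes tested.

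GC content of the transcript separated the directions further. Under 40% GC the median difference was −0.43 in S8 and −0.20 in T2, and from 60% upward it was 0.60 and 0.28. Of 561 genes under 40% GC 0.178% were kept as higher and 6.24% as lower, and of 716 genes at 60% or more 9.78% and 1.82%. Sox3, at 66.6% GC, and Pou3f1, at 61.5%, belong to the most GC-rich class, and their differences with length and GC trends removed were 2.51 and 3.11. Cxcl1, at 45.1%, and Zfp42, at 46.6%, kept differences of −5.00 and −2.38. With both trends removed, 905 of the 1053 kept genes were still called in the same direction. The gradients run along the same contrast as lines and libraries, and whether they arise from the libraries or from the cells was not tested.

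**Figure D5:**
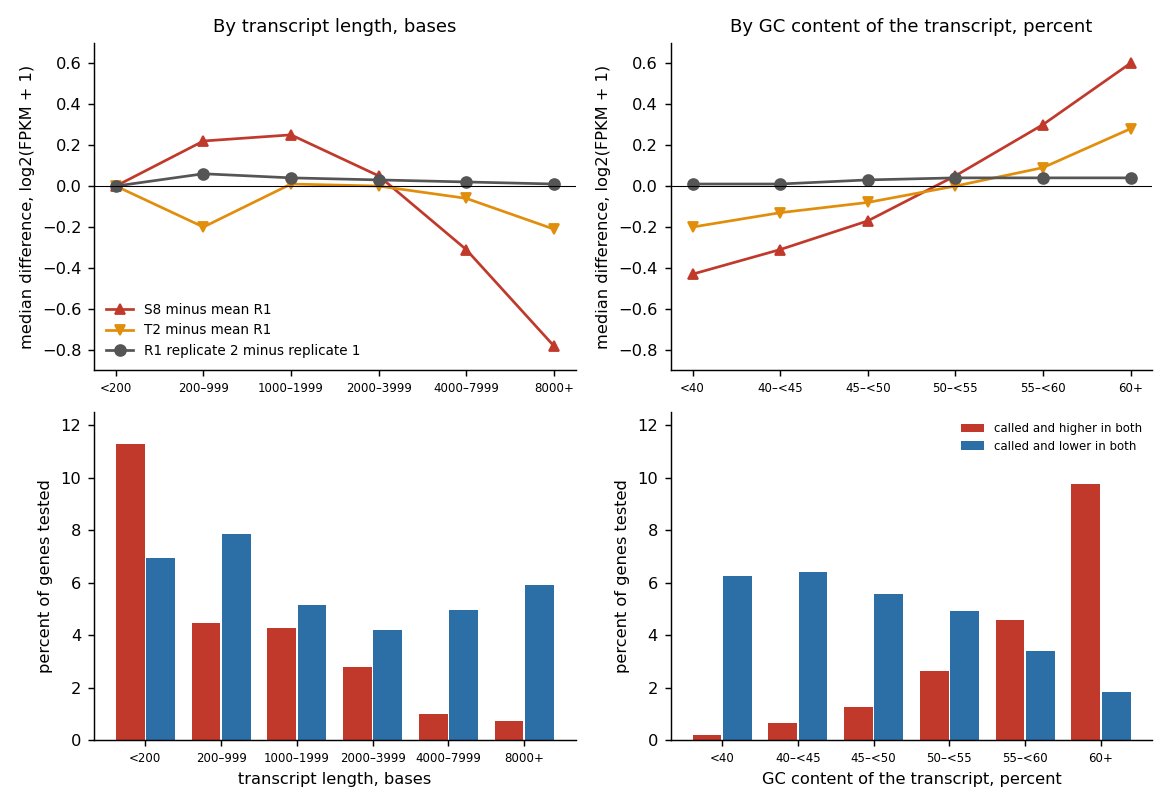
Median difference from the mean of R1 on the log2(FPKM + 1) scale for S8 and T2 and between the R1 replicates (top), and percent of tested genes kept as higher or lower (bottom), by class of transcript length in bases (left) and of GC content in percent (right). In S8 the median falls to −0.78 in the longest class and rises to 0.60 in the most GC-rich class, T2 has smaller values of the same sign in the longest and the most GC-rich class but lies at −0.20 against 0.22 in S8 for transcripts of 200 to under 1000 bases, and the R1 replicates stay between 0.00 and 0.06.

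Medians by chromosome lay between −0.21 (chromosome 1) and 0.19 (chromosome 7) in S8 and between −0.13 and 0.05 in T2 over the autosomes and X, so that no chromosome was shifted as a whole by the size of the calls. The 5 tested Y-linked genes had medians of −0.88 in S8 and −0.68 in T2.

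Short RNA genes formed a class of their own. Of 230 tested genes with transcripts under 200 bases, 26 were kept as higher and 16 as lower, 11.3% and 6.96%, but the interquartile range of the difference between the R1 replicates was 1.31 there, against 0.11 to 0.29 in the longer classes. The highest library of a kept short gene was backed by a median of 3.56 implied fragments, and 34 of the 42 had fewer than 20. Of 81 small nucleolar RNA genes tested 17 were called higher and 6 lower with a median of 0.29, and of 135 microRNA genes 10 higher and 9 lower with a median of −0.03. Libraries of oligo(dT)-selected mRNA do not capture mature microRNAs, so that such values are not levels of the mature forms. Mir762, the largest rise, was listed at 0 in R1 and at 2745 and 3498 FPKM in S8 and T2, backed by 9.74 and 15.2 fragments. Snord111 was listed at 0 in R1, 16-6 and 32 and at 1017 and 972 FPKM in S8 and T2, which 2 fragments in each library stood behind, and Snord91a was listed at 0 in S8 and T2 and at 1019 and 1956 FPKM in R1, on 1 and 2 fragments. Differences on 1 or 2 fragments are not distinguishable from the presence or absence of a few fragments. Better backed were Mir692-1, listed at 0 in S8 and T2 and at 1341 and 994 FPKM in R1 on 48 and 37 fragments, and, named after their values were seen, Mir703, with 3 and 2 fragments in R1 against 70 and 45 in S8 and T2, and Snord33, with 53 and 51 against 11 and 9.09.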

How the data were processed

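RNA-seq of the mouse lines R1, S8 and T2 was analysed, with 16-6 and 32 for reference. The authors mapped paired reads of oligo(dT)-selected mRNA to mm9 with TopHat 2.0.4 and Bowtie, and deposited FPKM per gene with confidence limits from Cufflinks (2.0.0 in the submitters' processing notes, another version in the study's methods). The deposited FPKM summed to 1.14408e+10 to 1.60283e+10 per library and were divided by 12725.7, which sets the median total to 1000000. The number of fragments behind a value was worked out from its upper confidence limit, taken to lie 2 standard errors of a count above the value, and covers counting error only.

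limma 3.58.1 (R 4.3.3, lmFit and eBayes with a trend) was fitted to log2(FPKM + 1) of the 13424 genes at 1 FPKM or more in at least 1 of the 4 libraries, in 2 groups of 2, and was tested on simulated data. Transcript length and GC content came from GENCODE vM1 on the same build and were known for 98.7% and 95.2% of the tested genes. The named genes were the 14 with the largest difference in each direction among kept genes of at least 200 bases and a mean of 5 FPKM in the higher group, the 2 largest short genes in each direction, the 3 most opposed in S8 and T2, up to 4 called members of each of 33 gene lists, and Pou5f1, Sox2, Nanog, Klf4, Myc, Lin28a, Krt5, Tnc, Pgc and Ghrl. Where no member of a list was called, the set held the 4 with the largest difference, not the planned 2 at the highest level. Genes outside that rule, such as Col1a1, Otx2, Nodal or Ndufa4l2, were named after their values were seen, and a few named by it are not reported here. The members and lists were chosen with earlier results of these data known. The alternatives were another pseudocount, filters, scalings, models, length limits, removal of length trends (lowess, span 0.3) and leaving out each library. Removal of GC trends was added after the data were seen.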

Additional observations from a re-analysis of the deposited data

Results flagged for a closer look

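S8 and T2 lay at least 1 on the log2(FPKM + 1) scale from the mean of R1 in opposite directions in 19 genes, none of which was called, and this difference between the lines was not tested. The small RNA gene Scarna17 differed from R1 by −4.82 in S8 and 4.72 in T2, Snord53 by 6.01 in S8 and −4.29 in T2, and Mir302a by −4.27 in S8 and 4.21 in T2. In each of these genes 1 R1 library was listed at 0 and the other was not: Scarna17 was at 794 FPKM in R1 replicate 1, Snord53 at 384 and Mir302a at 373 in replicate 2. No library of R1, S8 or T2 held more than 3 implied fragments of any of them.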

How the results depend on the processing

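No paired analysis was possible because S8 and T2 are single libraries whose labels carry no replicate number. With no fold minimum 3490 genes passed, 1592 higher and 1898 lower, and in all 3490 S8 and T2 had the same sign. The fit favours equal signs, since a difference between S8 and T2 enters its spread. Leaving out 1 library at a time gave 113 to 2307 calls, 25 to 956 higher and 85 to 1351 lower, and 113 to 2307 kept genes, counted on the remaining line where S8 or T2 was left out. The lowest counts were without an R1 library and the highest without T2. Under the other alternatives the count of kept genes lay between 882 (transcripts of at least 1000 bases) and 1519 (pseudocount 0.1). Of 136 named genes with a fit, no called gene turned direction. The uncalled Scarna17, Snord53, Mir302a, Sox2 and Myc did in at least 1 alternative, Sox2 to 0.11 without T2 and Myc to −0.04 with length and GC trends removed. Calls were lost in 90 without R1 replicate 1 and in 93 without replicate 2, in 10 with length and GC trends removed and in at most 6 under each other alternative. The median of the imprinted list was 0.04 without S8 and that of the ribosomal list −0.07, while the median of the streak list was −0.02 without T2. With 2 residual degrees of freedom and 1 library a line, differences between S8 and T2 cannot be tested.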
